A study of Mus musculus with 4 samples.

Results

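Aminoacyl-tRNA synthetases attach each amino acid to its transfer RNA, and the genes described here are these enzymes of the cytosol and of the mitochondrion together with the factors that drive mitochondrial protein synthesis. Members were the probe sets whose single gene symbol in the platform annotation was on a list of 45 genes, comprising 20 cytosolic enzymes, 16 mitochondrial enzymes and 9 mitochondrial translation factors. Of these, 43 genes had such a probe set (86 probe sets), out of 18193 genes on the array, and Dars and Mtrf1 were not analysed here. Expression was measured on Affymetrix Mouse430_2 arrays with RNA of Epcam-selected epithelium from the small intestine of mouse embryos at E15.5. The 2 knockout (KO) samples had the genotype Yy1f/f; Shh-Cre, and the 2 control samples were YY1f/f littermates, which carry the floxed alleles without Cre. Shh-Cre is a recombinase made in cells that express Shh, which in the gut are the endodermal epithelium, and no control carried it, so the Cre allele and the loss of Yy1 cannot be told apart as sources of a difference. Each sample pooled up to 2 embryos of its genotype.

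The nuclear genome encodes the synthetases of both compartments. Most amino acids have a cytosolic enzyme and a separate mitochondrial one, whose gene carries the suffix 2, whereas Gars (glycine) and Kars (lysine) each make the enzyme of both compartments. Mitochondrial ribosomes translate the few respiratory chain subunits encoded in mitochondrial DNA, and they need initiation factors (Mtif2, Mtif3), elongation factors (Tufm, Tsfm, Gfm1), release factors (Mtrf1, Mtrf1l) and recycling factors (Mrrf, Gfm2). Yy1 is a zinc finger transcription factor, and the title of the study names aerobic metabolism, to which mitochondrial translation contributes. Several cytosolic synthetases are known targets of Atf4, the transcription factor of the amino acid response.

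Values are log2 intensities, and each change subtracts the mean of 2 control arrays from the mean of 2 KO arrays and has a standard error (SE) from limma. Probe sets entered the test if 2 or more of the 4 arrays had a log2 value of 4 or above. The tested probe set with the highest mean stands for a gene, and a gene counted as changed at a limma adjusted p under 0.05, adjusted over all 16887 tested probe sets.

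The label check held: the brightest Yy1 probe set read 7.27 and 6.81 on the KO arrays, against 8.79 and 8.82 on the control arrays. General epithelium markers were present on all arrays, with none of 19 genes under the filter in either genotype. Their summed linear intensity was 11044 to 11777 in KO and 12303 to 12897 in controls. Of the 19, 5 rose and 5 fell, which is 52.6% changed against 39.6% of all genes. Epcam, the selection marker, was among the falls (-0.44, limma adjusted p = 0.0287). Mesenchyme markers were higher in KO (13 of 13 tested rose, 5 of them testable only through bright KO arrays, summed intensity of 18 genes 3023 to 3280 in KO against 770 to 946 in controls). Of these 18, 4 lay under the filter in KO (Pdgfra, Twist1, Twist2 and Thy1) and 10 in controls, the same 4 and Pdgfrb, Dcn, Lum, Postn, Foxf1 and Zeb2. Smooth muscle markers rose in 8 of 8 tested (2 testable only through bright KO arrays, summed intensity of 11 genes 2964 to 2979 in KO against 259 to 408 in controls, with 3 and 5 under the filter). Leukocyte markers rose in 6 of 6 tested (3 testable only through bright KO arrays, sum of 13 genes 651 to 778 in KO against 209 to 213 in controls, with 6 and 10 under the filter). Erythroid markers rose in 2 of 2 tested (1 testable only through bright KO arrays, sum of 9 genes 937 to 1054 in KO against 100.03 to 118 in controls, with 7 and 8 under the filter). Of 7 tested pancreas and liver markers 4 rose and 2 fell (sum of 8 genes 3975 to 4945 in KO, 4628 to 4697 in controls). The rises were in Ptf1a (change 2.828), Cela1 (2.495), Cpa1 (2.135) and Pdx1 (1.397). The falls were in Cps1 (-2.436) and Afp (-0.886), and Ttr did not pass. The sum joins changes in both directions and does not show the rises. Of the endothelial markers 9 of 10 lay under the filter in both genotypes, and of the enteric neuron and glia markers 5 of 7 in KO and 7 of 7 in controls. Enterocyte markers were lower (15 of 15 tested fell, 4 of them testable only through bright control arrays, summed intensity of 18 genes 1148 to 1393 in KO against 9594 to 12771 in controls). RNA quality, read as the 3' signal minus the 5' signal of the array's Gapdh controls, was 1.60 and 1.65 in KO and 1.31 and 1.37 in controls. The array's actin controls gave -0.08 and -0.07 in KO and -0.10 and -0.13 in controls. The difference between genotypes was thus 0.29 for Gapdh and 0.04 for actin. The part of these differences in the values given here was not tested, and fewer cells of a type and less RNA per cell cannot be told apart in these samples.

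Of the 45 members, 39 had a tested probe set, and 14 of these (35.9%) changed, 5 of them higher and 9 lower in KO. Over all 8626 genes tested, 39.6% changed, 17.9% higher and 21.7% lower, so the share among the members was near that of the array as a whole. The median change of the 39 was -0.06, against -0.03 for all genes. The arrays of the genotypes did not overlap for 27 of the 39 members (69.2%), and for 75% of all genes. Among the 25 members that did not pass, 16 had a 95% interval of the change that lay within 0.5 of zero in both directions on the log2 scale. These intervals are not adjusted for the number of genes.

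**Figure D1:**
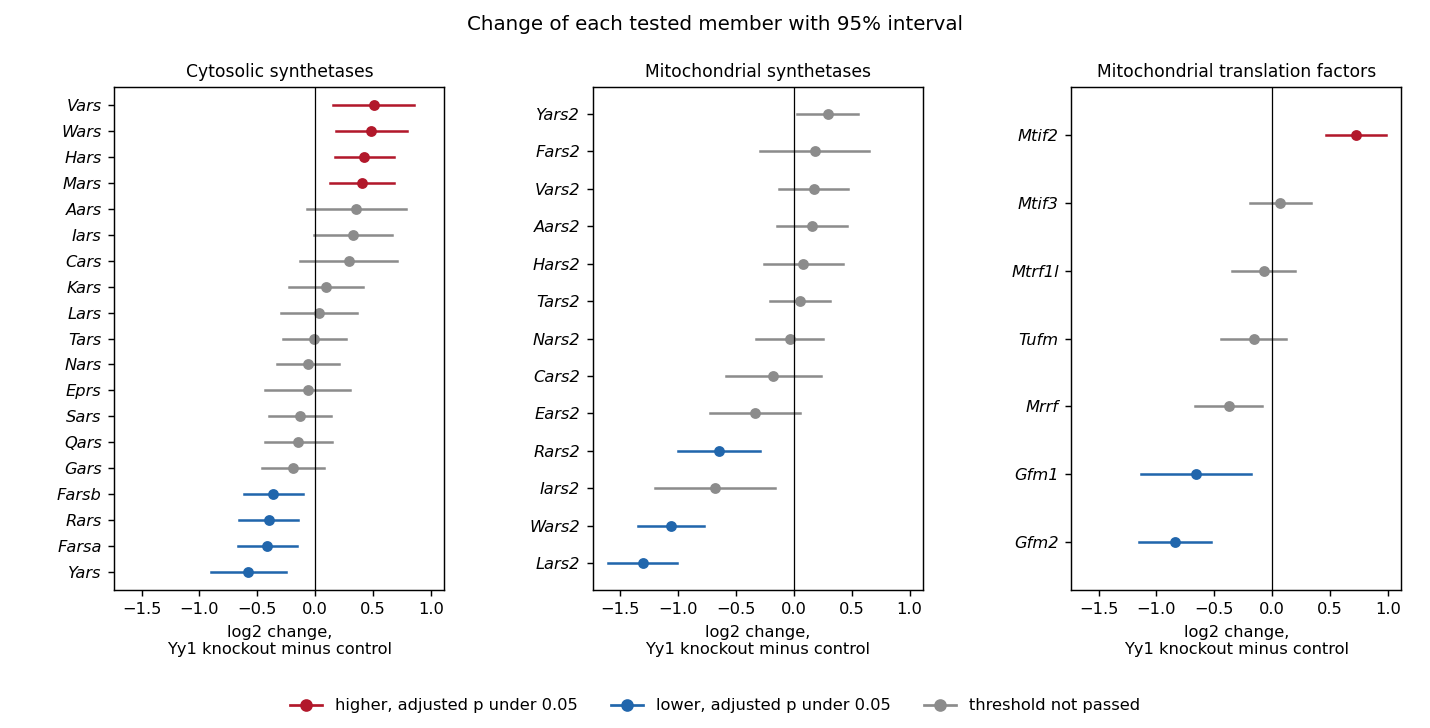
Change of each of the 39 tested members on the log2 scale, KO minus control, ordered by size within the cytosolic synthetases, the mitochondrial synthetases and the mitochondrial translation factors. Points are differences of means over 2 and 2 arrays and lines are 95% intervals from limma, with 4 cytosolic enzymes and Mtif2 past the threshold above zero and Lars2 at the lowest change, -1.31.

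The mitochondrial enzymes included the largest changes of any member. Of 13 tested, 3 fell and none passed limma's adjusted threshold as higher (1 was higher at an unadjusted p under 0.05), against background shares of 21.7% lower and 17.9% higher. Lars2, which charges the mitochondrial leucine tRNA, read 4.16 and 3.97 on the KO arrays, against 5.42 and 5.32 on the control arrays. All KO values were below all control values, and the KO mean was 40.5% of the control mean on the linear scale (change -1.31, SE 0.12, limma adjusted p = 0.00183). A further tested Lars2 probe set also fell, with 3.50 and 2.47 in KO against 4.93 and 4.74 in controls (change -1.85, SE 0.34, limma adjusted p = 0.0116). The KO arrays differed from each other more on it than on the first. Both KO values on it lay under the filter, so it was testable only through the brighter controls and only a fall was possible. The remaining Lars2 probe set lay under the filter on all arrays.

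Wars2, the mitochondrial tryptophan enzyme, read 3.10 and 3.10 on the KO arrays, against 4.07 and 4.26 on the control arrays (change -1.06, SE 0.11, adjusted p = 0.00269). Both KO values lay under the filter, so the gene could be tested only because the controls were brighter, and only a fall was possible. Rars2, the mitochondrial arginine enzyme, fell on its only probe set, with 6.49 and 6.24 in KO against 6.90 and 7.11 in controls. Its KO mean was 64.0% of the control mean (change -0.64, SE 0.14, adjusted p = 0.0199). With 1 array left out at a time, the change was -1.40 to -1.21 for Lars2, -1.15 to -0.97 for Wars2 and -0.77 to -0.52 for Rars2. These fits kept the filter set on all 4 arrays, so without a control Wars2 stayed tested only through the array left out. With a filter on the mean Wars2 was not tested, and 2 mitochondrial enzymes were lower. The authors' deposited table lists probe sets whose log2 change was 1 or more in either direction. Lars2 and Wars2 account for its only 3 probe sets of the members. The values were -1.31 and -1.85 for Lars2 (authors' limma adjusted p = 0.000810 and 0.00514) and -1.06 for Wars2 (adjusted p = 0.00153).

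The isoleucine enzyme Iars2 missed the threshold narrowly, with 6.22 and 6.75 in KO against 7.03 and 7.29 in controls (change -0.68, SE 0.21, adjusted p = 0.0513). The arrays of the genotypes did not overlap for Iars2, and its KO arrays differed by more than those of any other tested mitochondrial enzyme when each gene is read on its brightest probe set. The tyrosine enzyme Yars2 had the highest change of this group, with 8.14 and 8.05 in KO against 7.76 and 7.84 in controls (0.29, SE 0.11, adjusted p = 0.0817). The other 8 tested enzymes, those for alanine, asparagine, cysteine, glutamate, histidine, phenylalanine, threonine and valine, had changes between -0.34 (Ears2) and 0.18 (Fars2) and did not pass. The median of the 13 was -0.04.

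Mitochondrial enzymes for methionine, proline and serine had no probe set past the filter and were not tested. Mars2, the methionine enzyme, read 2.68 and 2.72 on its brighter probe set in KO, against 3.46 and 3.87 in controls, where the KO values were below the control values but all were dim. Pars2 read 3.88 and 3.96 in KO and 4.02 and 3.95 in controls, and its arrays overlapped. Sars2 read 3.80 on every array, an identical value under the filter, which does not show that its level was unchanged.

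The promoter windows of Lars2 and Wars2 are shown because these genes had the largest falls and because each holds the core letters of the Yy1 motif. RefSeq promoter windows (GRCm38.p6, 250 bases before to 50 after the annotated start) were given for 35 of the 45 members. The core was searched as AANATGGC on both strands, where N is any base. Its letters include ATG, and whether a match is also a translation start was not examined. It occurred in 6.05% of 32851 windows of all genes, and in windows of 5 members, namely Aars2, Lars2, Wars2 and Yars2 of 14 mitochondrial enzymes, Farsa of 13 cytosolic enzymes and none of 8 mitochondrial factors. The sites follow on the gene strand, with the match in capitals.
Lars2, chr9:123366936-123366965, plus strand: gttgttttgccAACATGGCggcgcccagag
Wars2, chr3:99141085-99141114, plus strand: ccgcccttctcAAGATGGCgctgttctctg
Yars2, chr16:16302970-16302999, plus strand: gcgtgtcccgcAAGATGGCggcgcccatgc
Aars2, chr17:45506840-45506869, plus strand: tgcccggagctAAGATGGCggtggcgttgg
Farsa, chr8:84856881-84856910, plus strand: ttgccacacttAAGATGGCgacgaccagct
Farsa, chr8:84856926-84856955, plus strand: gcgccacactaAAAATGGCaacgcacgcgc
The first base of the match lay 21 bases into the transcript in Lars2, 7 in Wars2, 17 in Yars2 and 20 in one of the Aars2 starts, whereas the Farsa matches began before the start, at positions -94 and -49. Of the 5 genes, Lars2, Wars2 and Farsa fell, and Yars2 (0.29) and Aars2 (0.16) did not pass. Over all genes tested 21.7% fell, and whether falls go with the core was not tested. Rars2 had a window without the core. A match describes letters in a window and does not show binding.

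Mitochondrial translation factors changed in both directions. Of 7 tested, 1 rose and 2 fell (background 17.9% and 21.7%), with a median of -0.16. Mtif2, the initiation factor that brings the initiator tRNA to the mitochondrial ribosome, read 6.49 and 6.54 in KO against 5.74 and 5.84 in controls. It was the member with the largest rise, 1.65-fold (change 0.72, SE 0.10, adjusted p = 0.00597). Gfm2, which splits the ribosome after termination, read 4.26 and 4.50 in KO against 5.20 and 5.24 in controls, and its KO mean was 55.8% of the control mean (change -0.84, SE 0.12, adjusted p = 0.00636). A further Gfm2 probe set lay under the filter on all arrays.

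Gfm1, the elongation factor that moves the ribosome along the message, had a tested probe set and another under the filter on all arrays. The tested one read 6.49 and 6.46 in KO against 6.88 and 7.40 in controls (change -0.66, SE 0.19, limma adjusted p = 0.0431). The control arrays of Gfm1 stood apart from each other, and its change was -0.92 without control 1 and -0.40 without control 2 (adjusted p = 0.0358 and 0.125), 0.175 and 0.206 being the adjusted p without KO 1 and KO 2. Gfm2 passed without either KO array (adjusted p = 0.0434 and 0.0399) and not without control 1 or control 2 (0.0576 and 0.0734). Mtif2 passed without KO 1 (0.0450), with an adjusted p of 0.0527, 0.0558 and 0.0557 without control 1, control 2 and KO 2.

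The recycling factor Mrrf read 4.97 and 5.13 in KO against 5.38 and 5.48 in controls, groups that did not overlap, and just missed the threshold (change -0.38, SE 0.11, adjusted p = 0.0516). Mtif3 (0.07) and Mtrf1l (-0.07) had 95% intervals of -0.19 to 0.33 and -0.35 to 0.20 and overlapped between genotypes. Tufm, the factor that delivers charged tRNA to the mitochondrial ribosome, gave unlike values on its 3 tested probe sets. Its brightest probe set had a change of -0.16 (SE 0.11, adjusted p = 0.308) and another -0.05 (SE 0.10, adjusted p = 0.739). The dimmest of the 3 fell, with 5.80 and 5.71 in KO against 6.37 and 6.45 in controls (change -0.65, SE 0.11, adjusted p = 0.00830). The first of these probe sets can match several transcripts and the second can cross-hybridise, as their suffixes state. Which of the 3 reflects the Tufm transcript was not tested. Other members share these limits, among them the brightest probe sets of Gfm1 and Farsb (several transcripts) and of Yars2 and Fars2 (cross-hybridisation). Tsfm, the exchange factor of Tufm, was under the filter with 3.45 and 3.62 in KO against 4.06 and 3.74 in controls.

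Cytosolic enzymes were split between rises and falls. Of 19 tested, 4 rose (Vars, Wars, Hars and Mars), 4 fell (Yars, Farsa, Rars and Farsb) and 11 did not pass, which is 42.1% changed against 39.6% of all genes. Their median was -0.01, which turned to 0.03 with median centring and to 0.08 with quantile normalization. On the brightest probe set of each gene, all 8 changes lay between 0.36 and 0.58 in size on the log2 scale. None of these reached the size seen for Lars2, Wars2, Gfm2, Mtif2, Gfm1 or Rars2. A dimmer Farsb probe set was at -0.69, a larger change than those of Gfm1 and Rars2. None of the 8 passed when any 1 array was left out, with adjusted p of 0.0505 to 0.183 by limma, while 2 to 7 of the 19 were higher and 3 or 4 lower at an unadjusted p under 0.05 in these fits.

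Among the enzymes that rose, Vars, which charges valine tRNA, read 6.05 and 6.36 in KO against 5.65 and 5.75 in controls (change 0.51, SE 0.14, adjusted p = 0.0394). Wars, the tryptophan enzyme, read 7.42 and 7.62 in KO against 6.98 and 7.08 in controls (change 0.49, SE 0.12, adjusted p = 0.0294). Of the other 3 tested Wars probe sets, each had a positive change (0.08 to 0.30) and none passed. Hars, the histidine enzyme, read 8.99 and 8.95 in KO against 8.52 and 8.58 in controls (change 0.42, SE 0.10, adjusted p = 0.0260). A further Hars probe set had a change of 0.12 and did not pass, and with a gene's probe sets averaged the adjusted p was 0.0697 for Hars and 0.0929 for Wars. Mars, the methionine enzyme (Mars1 on the array), read 8.28 and 8.36 in KO against 7.99 and 7.85 in controls (change 0.40, SE 0.11, adjusted p = 0.0382). For each of these genes both KO arrays were above both control arrays.

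Yars, the tyrosine enzyme, had the largest change of the cytosolic enzymes, with 5.26 and 5.32 in KO against 5.74 and 6.0 in controls. The KO mean was 66.9% of the control mean (change -0.58, SE 0.13, adjusted p = 0.0209). Farsa and Farsb encode the alpha and beta subunits of one enzyme, which charges phenylalanine tRNA, and both fell. Farsa read 6.03 and 6.04 in KO against 6.48 and 6.42 in controls (change -0.41, SE 0.10, adjusted p = 0.0275). Farsb had 4 tested probe sets, all negative, from -0.69 to -0.29, of which 2 passed, its brightest (change -0.36, SE 0.10, adjusted p = 0.0410) and one of the dimmer ones (-0.69, SE 0.11, adjusted p = 0.00800). The brightest lost its call with median centring (adjusted p = 0.0530) and with quantile normalization (0.0647). Rars, the arginine enzyme, read 8.15 and 8.17 in KO against 8.53 and 8.60 in controls (change -0.40, SE 0.10, adjusted p = 0.0309).

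**Figure D2:**
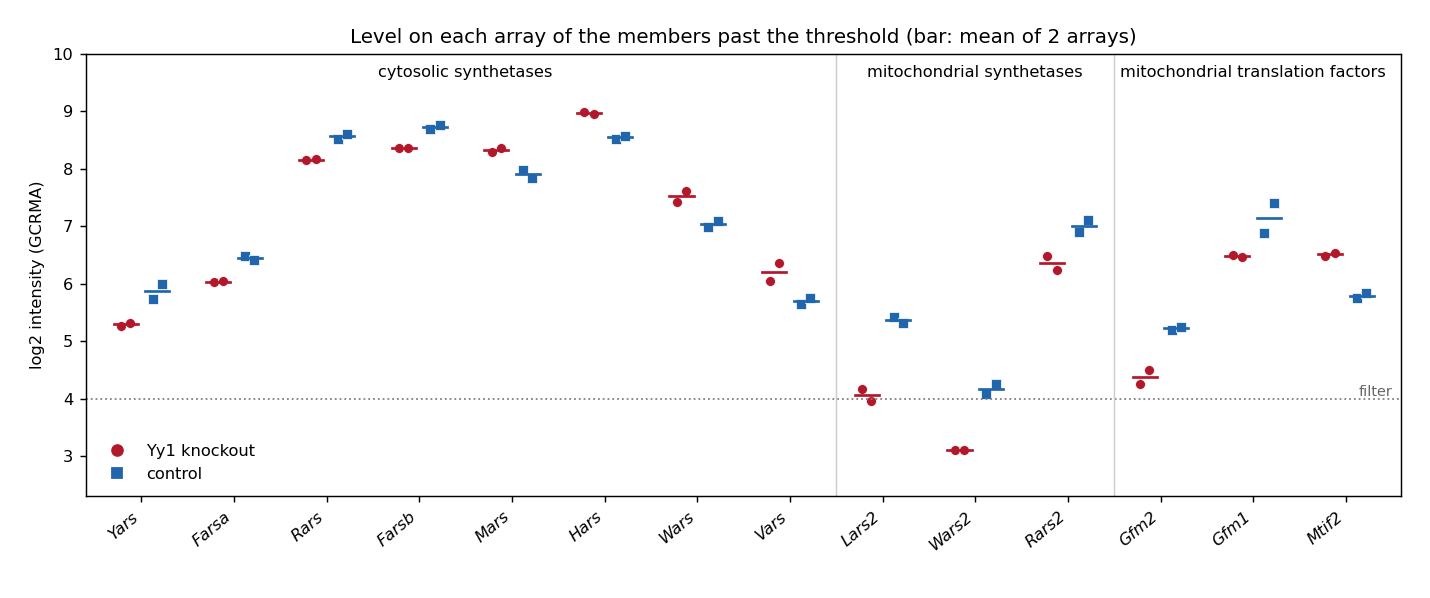
log2 intensity on each array of the 14 members past the threshold, with 2 KO arrays (circles) left of 2 control arrays (squares) for each gene and bars at the means. For every gene shown the genotypes do not overlap, and both KO values of Wars2 lie under the filter at 4. Heights are comparable within a gene only, since probe sets differ in brightness.

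The cytosolic enzymes that did not pass included those that serve both compartments. Kars read 7.24 and 7.30 in KO against 7.30 and 7.05 in controls, so that the genotypes overlapped (change 0.09, 95% interval -0.23 to 0.41). Gars read 8.24 and 8.17 in KO against 8.34 and 8.46 in controls (change -0.19, 95% interval -0.46 to 0.08). Tars (-0.01) and Lars (0.03) lay closest to no change, with intervals of -0.28 to 0.27 and -0.30 to 0.36. The remaining changes ran from -0.15 (Qars) to 0.35 (Aars).

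Several cytosolic synthetases form a complex with one another around the scaffold proteins Aimp1, Aimp2 and Eef1e1. Of its 7 tested enzymes, Mars rose, Rars fell, and Eprs, Iars, Kars, Lars and Qars did not pass, with a median of 0.03. Of the 12 tested cytosolic enzymes outside the complex 3 rose and 3 fell, with a median of -0.04, where 17.9% of all genes rose and 21.7% fell. Of the 3 scaffold genes, 1 fell, Eef1e1 (change -0.60), and the others were at -0.29 (Aimp1) and 0.02 (Aimp2).

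The response element of Atf4 was searched as TGATGNAA on both strands, and it was found in 5 of the 13 cytosolic enzymes with a promoter window, in none of the 14 mitochondrial enzymes or 8 factors, and in 3.97% of all windows. Sites of 3 of these genes, which read TGATGCAA or its reverse complement TTGCATCA, are shown because they are the letters described for this element in amino acid response genes.
Yars, chr4:129189895-129189924, plus strand: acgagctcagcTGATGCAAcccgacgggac
Iars, chr13:49682126-49682155, plus strand: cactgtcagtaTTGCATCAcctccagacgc
Tars, chr15:11399655-11399684, minus strand: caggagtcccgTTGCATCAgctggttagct
Among the genes with the element, Yars fell and Iars (0.33), Tars (-0.01) and Gars (-0.19) did not pass. Among 24 tested genes of the Atf4 and amino acid response, 7 rose and 8 fell, with a median of -0.09. This is 62.5% changed, against 39.6% of all genes, with 29.2% higher against 17.9% and 33.3% lower against 21.7%.

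**Figure D3:**
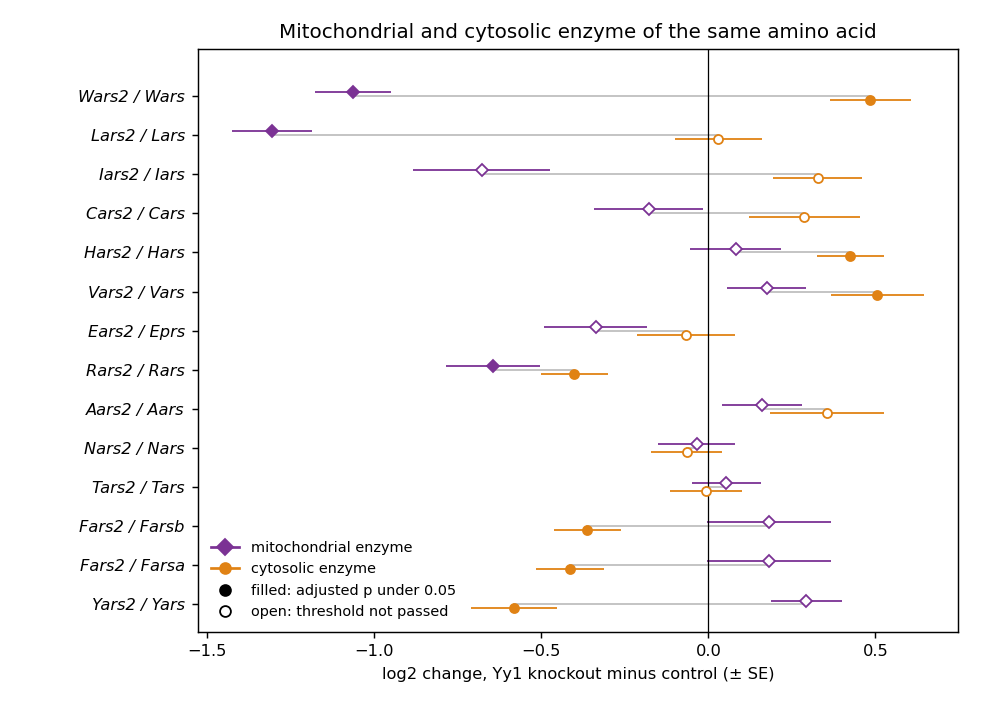
Change of the mitochondrial enzyme (diamond) and of the cytosolic enzyme (circle) of the same amino acid, KO minus control on the log2 scale with SE, for the 14 pairs in which both were tested. Filled symbols passed the threshold. Wars2 and Wars lie furthest apart, at -1.06 and 0.49.

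Enzymes of the same amino acid in the different compartments were set side by side in 14 pairs, in which Farsa and Farsb share Fars2. The mitochondrial member had the lower change in 9 pairs and the higher in 5, and 6 pairs had no member past the threshold. The differences within pairs were not tested. Only the tryptophan and arginine pairs had both members past the threshold. For tryptophan they moved in opposite directions, with Wars2 at -1.06 and Wars at 0.49. For arginine both fell, Rars2 by 0.64 and Rars by 0.40 on the log2 scale. For leucine, Lars2 fell (-1.31) beside a Lars change of 0.03 with an interval of -0.30 to 0.36. The reverse order was seen for tyrosine, where Yars fell (-0.58) and Yars2 was at 0.29, and for phenylalanine, where Farsa (-0.41) and Farsb (-0.36) fell and Fars2 was at 0.18. The changes of Fars2 on its 2 tested probe sets, 0.18 and -0.03, differed in sign.

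**Figure D4:**
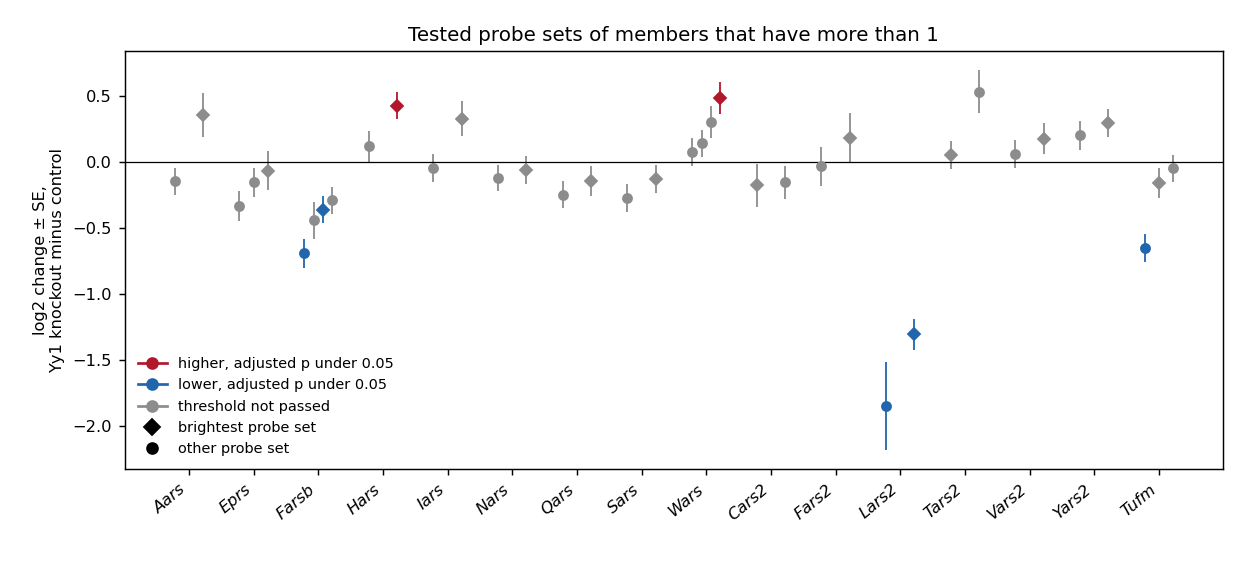
Change with SE of every tested probe set of the 16 members that had more than 1, KO minus control on the log2 scale, with the brightest probe set of a gene as a diamond. Both Lars2 probe sets fell, the dimmer with both KO values under the filter, whereas 1 of 3 Tufm probe sets and 2 of 4 Farsb probe sets did.

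Of 16 members with more than 1 tested probe set, 13 had changes of 1 sign on all of them. A call was often not shared between probe sets. Lars2 passed on 2 of 2, though the dimmer could be called only as a fall. Farsb passed on 2 of 4, Tufm on 1 of 3, Hars on 1 of 2 and Wars on 1 of 4. None passed in both directions, and 3 (Aars, Iars and Fars2) had changes of both signs that did not pass. For Aars the brighter probe set was at 0.35 and the other at -0.15, and for Iars at 0.33 and -0.05. For the threonine enzyme Tars2 the dimmer probe set was at 0.53 (adjusted p = 0.0509) and the brighter at 0.05. The other 23 tested members rest on 1 probe set.

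Other genes of translation, taken from lists made with earlier results known, had between 11.8% and 35.3% of their tested genes changed, against 39.6% of all genes. Of 23 tested cytosolic initiation, elongation and termination factors 1 rose and 2 fell, with a median of -0.09. Of 17 tested genes that process or modify mitochondrial tRNA 2 rose and 3 fell, with a median of -0.02. Of 17 tested genes of mitochondrial ribosome assembly and translation control 2 rose and 4 fell, with a median of -0.07. Of 17 tested genes that modify cytosolic tRNA 2 rose and the others did not pass, with a median of 0.09.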

How the data were processed

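The deposited value table held log2 intensities of 45101 probe sets, which the authors computed with GCRMA (sequence-based background correction and normalization between arrays), per the submitters' processing notes. Their comparison table held log2 fold changes and p-values, with the moderated t and log odds as scores, from limma per the file headers and these notes. For versions and the genome build: not given in the sources used here. Probe sets with several symbols and 64 control probe sets were not members. Yy1_KO minus WT was fitted with limma 3.58.1 (R 4.3.3; lmFit, eBayes) without covariates, and adjusted by Benjamini-Hochberg. The fit was checked on simulated data. Members and lists were chosen with earlier results of these data known. Named in full were up to 6 members per group, by size among those that passed and whose genotypes did not overlap, and any member with probe sets passing in opposite directions, of which there was none. Other members are given because the list is short or because their probe sets disagreed, chosen after values were seen. The series design calls the samples biological replicates, so p-values measure the spread between pools. The number of arrays limits the precision. Motifs were searched in RefSeq promoter windows with Python 3.11.15, and the site of 1 gene is not reported here. The effect of 17 other settings, and of 1 added after seeing the data, is given at the end.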

Additional observations from a re-analysis of the deposited data

How the results depend on the processing

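Fits that left out 1 array took the remaining array of that genotype to vary as the other genotype did. They kept the filter set on all 4 arrays, which Wars2 passed only through both controls. The ranges over these 4 fits were 0 to 0 for cytosolic enzymes higher and lower, 2 to 2 lower and 0 to 0 higher for mitochondrial enzymes, 0 to 1 higher and 0 to 1 lower for the factors, and 353 to 827 higher and 444 to 896 lower for all genes. Group medians ranged from -0.11 to 0.067 (cytosolic), -0.075 to 0.033 (mitochondrial) and -0.24 to -0.085 (factors).

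Without a filter on dim probe sets no member passed (0 in each group and direction by limma; 3 cytosolic enzymes higher and 4 lower, 1 mitochondrial enzyme higher and 4 lower, and 1 factor higher and 2 lower at an unadjusted p under 0.05), and all genes gave 39 higher and 48 lower, with a factor median of -0.26; the cause was not tested. At an adjusted p under 0.01, 0 cytosolic enzymes were higher and 0 lower, 1 factor was lower, and all genes gave 718 and 893. Against a 1.2-fold change the numbers were 0, 0 and 1, with 823 and 1036. A filter at log2 of 6 gave medians of -0.23 (mitochondrial enzymes) and -0.074 (factors), 1 factor lower and 915 genes higher, fewer genes being tested. A filter on the interquartile range gave 2 cytosolic enzymes lower, 1 mitochondrial enzyme higher and 5 lower, and medians of -0.18 (mitochondrial enzymes) and -0.37 (factors). An offset of 16, trend and robust variance, and quantile normalization each gave 1 mitochondrial enzyme higher. With quantile normalization the cytosolic median was 0.082 and that of the factors -0.070. With a gene's probe sets averaged, 2 cytosolic enzymes were higher and the factor median was -0.29. The cause of these shifts was not tested.

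Same-numbered arrays deviated in opposite directions (r = -0.31 over 16887 probe sets), so the replicate numbers were not taken as pairs. With the replicate block 2 cytosolic enzymes were higher and 1 lower, and with crossed numbers, added after the data had been seen, 4 and 3. No member past the threshold changed sign under any of these alternatives, an outcome that was largely fixed in advance. Other filters, thresholds and variance settings leave the change of a given probe set as it is. Leaving out 1 array could not turn the sign either, since the genotypes did not overlap for any of these members.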

Other observations

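The synthetases fall into classes I and II by the fold of their catalytic domain, a split that was looked at after the values had been seen and was not tested. Among mitochondrial enzymes the 3 that fell, Lars2, Rars2 and Wars2, were of class I, of which 8 were tested (median -0.49, range -1.31 to 0.29). The 5 tested of class II lay between -0.04 and 0.18 and did not pass. Over all genes 21.7% fell and 17.9% rose. Among cytosolic enzymes 3 of 9 in class I rose and 2 fell (median 0.29), and 1 of 9 in class II rose and 2 fell (median -0.06). Eprs, which joins a domain of each class, was left out of this count.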
